A study of Mus musculus with 6 samples.

Results

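The genes described here are 44 components of the T cell receptor (TCR) signalling pathway, from the CD3 chains of the receptor to calcineurin, NFAT and the brakes on the pathway. They were chosen by name from knowledge of the pathway, with earlier results of these data known. Shares of members set beside those of all genes tested are therefore descriptions only. A row of the deposited table was taken as a member when its symbol was on that list. All 44 were found among the 24420 gene symbols of the table. RNA was measured by sequencing in regulatory T (Treg) cells of 6 female C57BL/6 mice, 3 of the genotype Foxp3YFP-Cre/wtOgtwt/fl (OGT-sufficient) and 3 of the genotype Foxp3YFP-Cre/wtOgtfl/fl (OGT-deficient). All 6 mice carry Cre and at least 1 floxed *Ogt* allele, no further treatment is named, and the labels give lymph nodes as the tissue. The labels state no age, and the general age in the methods, 6 to 12 weeks, is not tied to these mice. After CD4 bead enrichment the cells were sorted for YFP, which is fused to a Cre that the *Foxp3* locus drives. Heterozygous females carry this allele on 1 X chromosome, so the sort takes the Treg cells in which the chromosome with Cre is active. Whether the floxed *Ogt* allele of the Foxp3YFP-Cre/wtOgtwt/fl mice lies on that same chromosome is not given in the sources used here. The OGT status of their sorted cells follows the authors, who call these cells OGT-sufficient, and the *Ogt* levels of both groups are given below. OGT is the enzyme that attaches O-linked N-acetylglucosamine to nuclear and cytoplasmic proteins. The comparison asks whether the transcripts of the pathway differ between Treg cells with and without it.

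When the TCR binds its peptide and MHC ligand, the kinase LCK, brought in by the coreceptor CD4, phosphorylates the CD3 and zeta chains, and ZAP70 docks there. ZAP70 phosphorylates the adaptors LAT and SLP-76 (*Lcp2*), on which phospholipase C gamma 1 and exchange factors for small GTPases gather. Calcium then activates calcineurin, which frees NFAT to enter the nucleus, and diacylglycerol activates protein kinase C theta and, through a complex with BCL10 and MALT1, NF-kappaB. Phosphatases, the kinase CSK, ubiquitin ligases and diacylglycerol kinases hold the pathway back. Treg cells need TCR signals to keep up their suppressive function.

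Total counts per mouse were between 3375454 and 4103552. Levels are given as CPM, the count in relation to the library size after TMM scaling, and 3 counts correspond to between 0.759 and 0.808 CPM. For *Ogt*, the gene that was deleted, 562, 632 and 957 counts were found in the OGT-sufficient mice (replicates 1, 2 and 3). The OGT-deficient mice had 327, 266 and 368 counts. The level was 191 ± 53.9 CPM (SD, n = 3) and 82.7 ± 14.6 CPM (SD, n = 3), with no overlap between the groups. The log2 fold change was -1.21 ± 0.21 (SE), with an adjusted p of 0.191 in edgeR's quasi-likelihood test with Benjamini-Hochberg adjustment over the 10949 genes tested, which is above the threshold of 0.1 used for the false discovery rate (FDR). Across 15 alternative analyses *Ogt* passed that threshold in 5, and its adjusted p was between 1.6e-05 and 0.764. All 10 Treg markers were detected, *Foxp3* at 189 to 300.4 CPM and *Il2ra* at 328 to 651 CPM. Their summed level was 1558 to 2492 CPM in the OGT-sufficient mice and 2259 to 2519 CPM in the OGT-deficient mice. OGT-sufficient replicate 3 stood apart, where 18346 genes had a count, while this number was 14412 to 15197 for the remaining 5. The ribosomal RNA gene *Rn45s* took 24.2% of the counts of this library and 30.6% of those of OGT-deficient replicate 1, and 33.8 to 37.1% in the other 4. All 10 macrophage markers were also detected in these sorted cells, at a summed level of 1868 to 3954 CPM in the OGT-sufficient mice and 1325 to 5764 CPM in the OGT-deficient mice. B cell markers summed to 91.1 to 328 and 89.1 to 149 CPM in the 2 groups, and CD8 T and NK cell markers to 32.6 to 44.2 and 20.2 to 37.7 CPM, with *Ncr1* at 0 to 2 counts in every sample. Erythroid markers summed to 221 to 856 and 226 to 489 CPM, with *Slc4a1* at 111 to 451 CPM and *Alas2* at 34.2 to 191 CPM, while *Hba-a1* had 0 counts in every sample. Neutrophil markers summed to 26.1 to 257 and 16.3 to 27.3 CPM, and the highest B cell, CD8 T and NK, erythroid and neutrophil sums were those of OGT-sufficient replicate 3. Because these are bulk samples, fewer cells of a type and less RNA per cell cannot be told apart.

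All 44 members passed the filter on low counts, and none passed the FDR threshold of 0.1 in edgeR's quasi-likelihood test, where 0.0274% of all genes tested did. The count was also 0 with DESeq2 and with edgeR's exact test. At an unadjusted p under 0.05 there were 3 members, *Malt1*, *Ppp3cb* and *Ptpn22*, all lower in OGT-deficient cells. This is 3 of 44 against 7.1% of all genes tested (4.01% lower and 3.09% higher), so the share was close to the background. DESeq2 had 1 member at that level, against 2.55% of all genes it tested, and the exact test had 3, against 6.38%. The count was 1 without OGT-deficient replicate 2, against 4.13% of all genes tested. It was 8 without OGT-deficient replicate 3, against 6.64%, and 6 without OGT-sufficient replicate 3, against 6.92%, with *Malt1* among them each time. The 2 groups did not overlap for 7 members, against 13.2% of all genes tested (7.48% lower and 5.72% higher). Of these, *Malt1*, *Ppp3cb*, *Ptpn22* and *Nfatc1* were lower and *Cd247*, *Trat1* and *Sla* higher in OGT-deficient cells. With libraries scaled by their totals alone, *Malt1*, *Ppp3cb* and *Ptpn22* still had no overlap and the other 4 did overlap. Log2 fold changes lay between -0.57 for *Malt1* and 0.30 for *Cd3g*, with 21 members above 0 and 23 below. Their median was -0.01, beside a median of -0.02 over all genes tested. The median size of the change was 0.11 among the members and 0.16 among all genes tested.

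**Figure D1:**
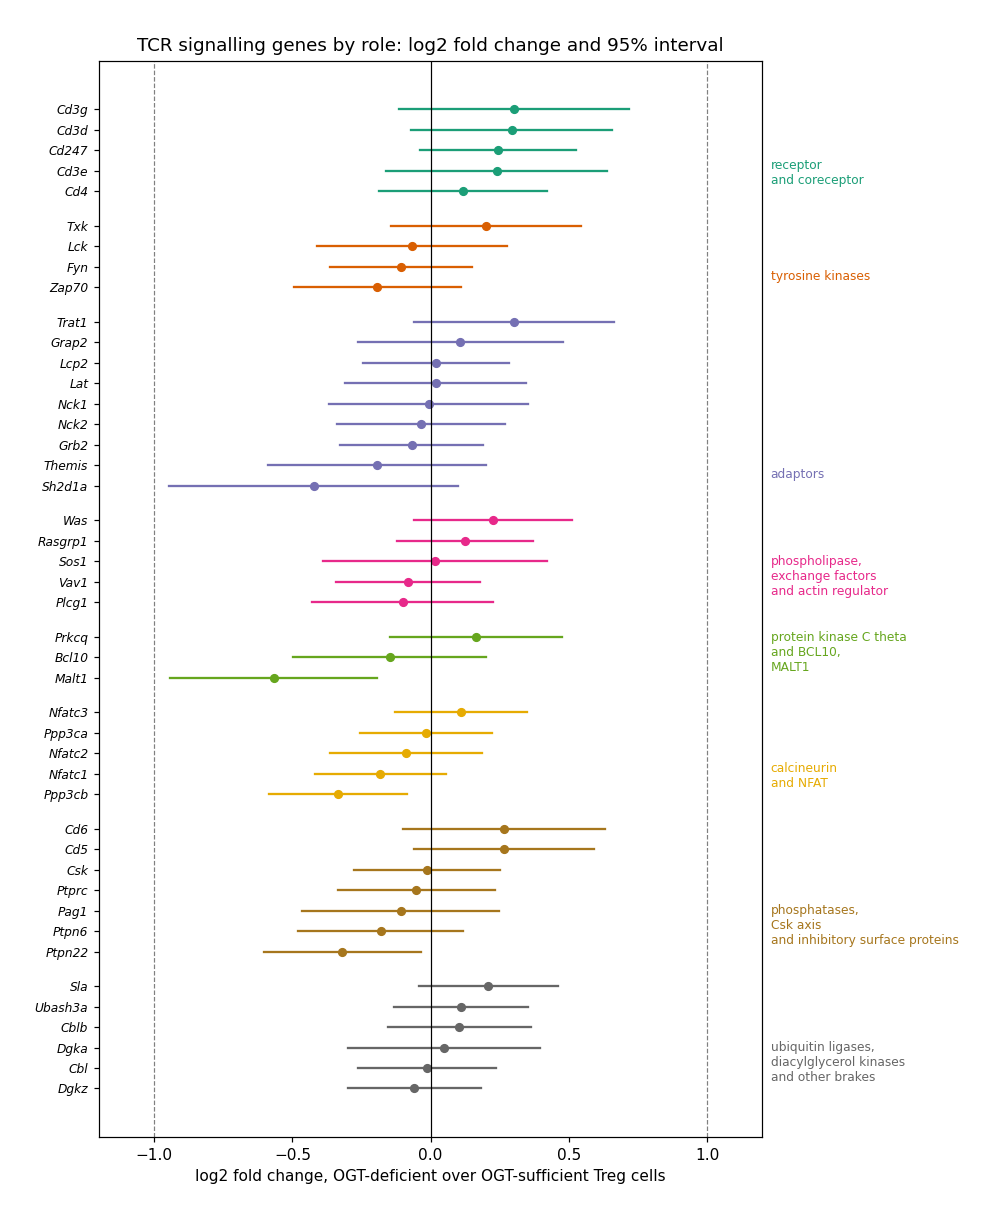
Log2 fold change (x axis, OGT-deficient over OGT-sufficient) of the 44 members in rows grouped by role, with points for the estimate and bars for the 95% interval, and dashed lines at a 2-fold change in either direction. Every interval lies between the dashed lines, all 5 receptor and coreceptor genes sit right of 0, and the intervals of *Malt1*, *Ppp3cb* and *Ptpn22* lie left of 0.

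The precision of these measurements sets what can be said of the members that did not pass. The 95% interval of the fold change lay within a 2-fold change in either direction for 44 of 44 members, against 77.8% of all genes tested. It lay within a 1.5-fold change for 34 of 44 members, against 42.6% of all genes tested. The labels do not say more of the replicates than that they are separate samples. The p-values set the difference between the groups against the spread between these samples.

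*Cd3g*, *Cd3d* and *Cd3e* encode the CD3 chains that pair with the antigen-binding chains of the TCR and carry its signal into the cell. They lie together on chromosome 9 (GRCm38 coordinates from GENCODE M21), *Cd3g* at chr9:44969572-44980431 on the minus strand, *Cd3d* at chr9:44981786-44987339 on the plus strand and *Cd3e* at chr9:44998740-45009627 on the minus strand. In RefSeq the starts of *Cd3g* and *Cd3d* are 1355 bases apart and point away from each other, and the start of *Cd3e* is 27825 bases beyond that of *Cd3d*. GENCODE places the start of *Cd3e* slightly further upstream than RefSeq does, so the last bases of its window lie inside the GENCODE gene. The 250 bases before each start are shown because these neighbouring genes were higher and lower together across the mice. This was not particular to them. *Cd4* on chromosome 6, *Cd5* and *Cd6* on chromosome 19 and *Ubash3a* on chromosome 17 had the same highest and lowest sample. They are RefSeq GRCm38.p6 sequence, written 5′ to 3′ on the strand of the gene, at chr9:44980432-44980681 for *Cd3g*, chr9:44981536-44981785 for *Cd3d* and chr9:45009612-45009861 for *Cd3e*. Capitals mark the NFAT core GGAAA, or TTTCC on the other strand, and the ETS motif AGGAAG, or CTTCCT on the other strand.
Cd3g: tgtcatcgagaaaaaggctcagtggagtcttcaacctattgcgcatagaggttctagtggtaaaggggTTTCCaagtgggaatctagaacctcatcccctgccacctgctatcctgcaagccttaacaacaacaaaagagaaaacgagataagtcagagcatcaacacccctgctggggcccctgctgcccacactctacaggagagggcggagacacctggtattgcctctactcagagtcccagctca
Cd3d: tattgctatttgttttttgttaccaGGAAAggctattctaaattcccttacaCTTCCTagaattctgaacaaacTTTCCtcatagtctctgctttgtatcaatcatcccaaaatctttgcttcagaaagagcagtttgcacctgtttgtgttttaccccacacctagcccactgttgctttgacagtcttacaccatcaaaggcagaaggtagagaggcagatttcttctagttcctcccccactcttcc
Cd3e: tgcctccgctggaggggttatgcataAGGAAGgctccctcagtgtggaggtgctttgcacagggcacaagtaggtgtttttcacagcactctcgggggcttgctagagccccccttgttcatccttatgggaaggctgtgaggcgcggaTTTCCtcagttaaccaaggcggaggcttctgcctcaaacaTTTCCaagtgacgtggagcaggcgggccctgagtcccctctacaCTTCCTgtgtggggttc

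The NFAT core was found 1 time before *Cd3g*, 2 times before *Cd3d* and 2 times before *Cd3e*. The ETS motif was found 0, 1 and 2 times in the same order. Neither the RUNX motif TGTGGT nor the TATA box TATAAA, searched on both strands, occurred in these 3 windows. Windows of the same length were held for 36 of the 44 members, 52 windows in all because some genes have several starts. The members without a window were *Cd4*, *Sh2d1a*, *Malt1*, *Ppp3ca*, *Nfatc1*, *Pag1*, *Cd6* and *Sla*. The ETS motif was in 57.7% of the member windows and in 29.5% of all 32851 windows. The NFAT core was in 71.2% and 55.6%, the RUNX motif in 13.5% and 14% and the TATA box in 9.6% and 12.4%, respectively. The NFAT core and the ETS motif share the letters GGAA and may overlap, and a match of letters is a description of the window only.

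Receptor and coreceptor transcripts were all somewhat higher on average in OGT-deficient cells, by a median log2 fold change of 0.24 over the 5 genes, but none passed the test. *Cd3g* was at 409, 381 and 313 CPM in OGT-sufficient replicates 1, 2 and 3 and at 559.5, 454 and 346 CPM in OGT-deficient replicates 1, 2 and 3. *Cd3d* was at 136, 137 and 99.5 CPM and at 175, 149 and 132 CPM, in the same order. *Cd3e* was at 412, 388 and 286 CPM and at 471, 468 and 343 CPM. For all 3 genes OGT-deficient replicate 1 was the highest sample and OGT-sufficient replicate 3 the lowest, and the groups overlapped because OGT-deficient replicate 3 was below OGT-sufficient replicates 1 and 2. The log2 fold changes were 0.30 ± 0.18 (SE) for *Cd3g*, 0.29 ± 0.16 for *Cd3d* and 0.24 ± 0.18 for *Cd3e*, with adjusted p of 0.762, 0.754 and 0.8 in edgeR's quasi-likelihood test. The summed level of the 3 CD3 chains was 854 ± 137 CPM (SD, n = 3) and 1032 ± 196 CPM (SD, n = 3), with a two-sided p of 0.3 in an exact permutation test, which cannot give a p under 0.1 with 3 mice against 3.

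*Cd247* encodes the zeta chain, the signalling subunit with the most phosphorylation motifs. It was at 172, 172 and 173 CPM in the OGT-sufficient mice and at 238, 189 and 185 CPM in the OGT-deficient mice. The OGT-sufficient samples were almost equal and all OGT-deficient samples were above them, OGT-deficient replicate 1 by the widest gap. The log2 fold change was 0.24 ± 0.12 (SE), with an adjusted p of 0.746 in edgeR's quasi-likelihood test. The exons of *Cd247* overlap those of *Pou2f1* on the opposite strand, and whether the counting used strand is not given in the sources used here, so its level is uncertain. *Cd4* was at 647, 703 and 532 CPM and at 725, 673 and 640.5 CPM. Its groups overlapped, with a log2 fold change of 0.12 ± 0.13 (SE) and an adjusted p of 0.882 in the same test. The constant-region genes *Trac*, *Trbc1* and *Trbc2* were looked for but have no row in the deposited table, so they could not be analysed.

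The size of the CD3 difference varied with which mouse was left out. Without OGT-sufficient replicate 3 the log2 fold change was 0.21 for *Cd3g*, 0.17 for *Cd3d*, 0.10 for *Cd3e*, 0.26 for *Cd247* and 0.02 for *Cd4*. Without OGT-deficient replicate 1 it was 0.12 for *Cd3g*, 0.18 for *Cd3d*, 0.16 for *Cd3e* and 0.12 for *Cd247*. Without OGT-deficient replicate 3 it was 0.50 for *Cd3g*, 0.42 for *Cd3d*, 0.41 for *Cd3e* and 0.34 for *Cd247*. Without both OGT-sufficient replicate 3 and OGT-deficient replicate 1 it was 0.02 for *Cd3g*, 0.04 for *Cd3d*, 0.02 for *Cd3e*, 0.12 for *Cd247* and -0.04 for *Cd4*. These 2 samples were left out together after seeing the data, and as they are the lowest and the highest sample for the CD3 chains and *Cd4*, a smaller difference was bound to follow.

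**Figure D2:**
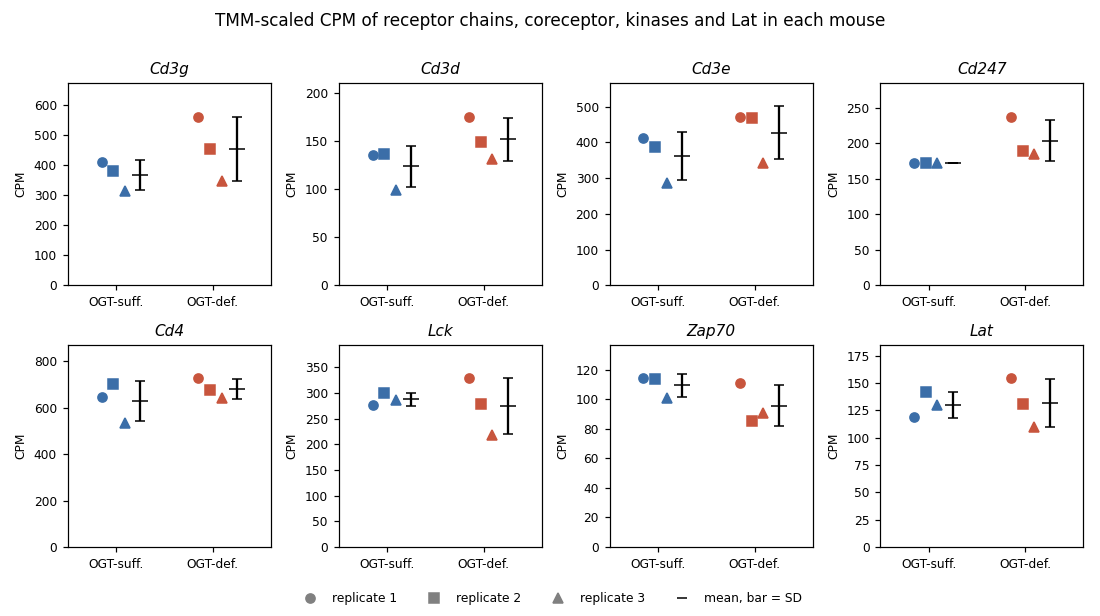
TMM-scaled CPM (y axis, from 0) of 8 members in each mouse, by group on the x axis, with a symbol for each replicate and a line and bar for the mean and SD. OGT-deficient replicate 1 (red circle) is the highest sample for 7 of the 8 genes, *Zap70* being the exception, and *Cd247* has no overlap between the groups.

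Among the tyrosine kinases, *Lck*, which starts the phosphorylation of the receptor, was at 276, 300.4 and 287 CPM in the OGT-sufficient mice and at 328, 278 and 218 CPM in the OGT-deficient mice. The OGT-deficient mice held both the highest and the lowest sample, and the log2 fold change was -0.07 ± 0.15 (SE), with a 95% interval of -0.41 to 0.28. *Zap70*, the kinase that docks on the phosphorylated receptor, was at 114, 114 and 101 CPM and at 111, 85.3 and 90.7 CPM. Its groups overlapped through OGT-deficient replicate 1, and the log2 fold change was -0.19 ± 0.13 (SE) with an adjusted p of 0.785 in edgeR's quasi-likelihood test. *Fyn*, a SRC family kinase beside LCK, had a log2 fold change of -0.11, and *Txk*, a TEC family kinase, one of 0.20. Taking these 4 kinases as a group, 1 was above 0 and 3 below, the median was -0.09 and none passed the test.

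The 9 adaptors had a median log2 fold change of -0.01, with 4 above 0 and 5 below. *Lat*, the membrane scaffold of the pathway, was at 118, 141 and 129.8 CPM in the OGT-sufficient mice and at 154, 131 and 109.8 CPM in the OGT-deficient mice. The groups overlapped fully, and the log2 fold change was 0.02 ± 0.14 (SE), with a 95% interval of -0.31 to 0.35. *Trat1*, an adaptor that associates with the TCR complex, was at 22.2, 30.7 and 28.4 CPM and at 35.6, 32.4 and 32.2 CPM. All OGT-deficient samples were above all OGT-sufficient samples and the log2 fold change was 0.30 ± 0.16 (SE) with an adjusted p of 0.753 in edgeR's quasi-likelihood test. *Sh2d1a*, which encodes the small adaptor SAP, had the lowest log2 fold change of the role group, -0.42 ± 0.23 (SE), at 20.7 ± 4.68 and 15.4 ± 3.16 CPM (SD, n = 3), and its groups overlapped. The remaining adaptors were *Lcp2* at a log2 fold change of 0.02, *Grap2* at 0.11, *Grb2* at -0.07, *Nck1* at -0.01, *Nck2* at -0.04 and *Themis* at -0.19.

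Of the phospholipase, exchange factors and actin regulator, 3 were above 0 and 2 below, with a median of 0.02. *Rasgrp1*, the diacylglycerol-responsive activator of RAS, was at 350.1, 368 and 363 CPM in the OGT-sufficient mice and at 422, 395 and 363 CPM in the OGT-deficient mice. The groups overlapped through OGT-deficient replicate 3, and the log2 fold change was 0.13 ± 0.11 (SE) with an adjusted p of 0.844 in edgeR's quasi-likelihood test. *Was*, an activator of actin branching, had a log2 fold change of 0.23, *Sos1*, an exchange factor for RAS, 0.02, *Vav1*, another exchange factor, -0.08, and *Plcg1*, the phospholipase, -0.10.

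*Malt1* had the lowest log2 fold change of the 44 members. It encodes a paracaspase that acts with BCL10 and links protein kinase C theta to NF-kappaB. It was at 104, 109 and 153 CPM in OGT-sufficient replicates 1, 2 and 3 and at 90.8, 80.7 and 75.5 CPM in OGT-deficient replicates 1, 2 and 3. Every OGT-deficient sample was below every OGT-sufficient sample, and OGT-sufficient replicate 3 was well above its group. The log2 fold change was -0.57 ± 0.17 (SE), with a 95% interval of -0.94 to -0.19, an unadjusted p of 0.00754 and an adjusted p of 0.497 in edgeR's quasi-likelihood test. In all 15 alternatives *Malt1* was lower at an unadjusted p under 0.05, with log2 fold changes from -0.64 to -0.36, the last without OGT-sufficient replicate 3, and adjusted p from 0.197 to 0.997. *Prkcq*, which encodes protein kinase C theta, was at 299, 286 and 315 CPM and at 398, 323 and 287 CPM. Its groups overlapped, with OGT-deficient replicate 1 the highest, and the log2 fold change was 0.16 ± 0.14 (SE) with an adjusted p of 0.836 in the same test. *Bcl10*, the partner of MALT1, had a log2 fold change of -0.15.

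Of the calcineurin and NFAT genes, *Ppp3cb* was lower and its close relative *Ppp3ca* level between the groups. Both encode catalytic subunits of calcineurin, the phosphatase that removes phosphate from NFAT. *Ppp3cb* was at 77.5, 71.9 and 79 CPM in the OGT-sufficient mice and at 60.6, 58.4 and 62.1 CPM in the OGT-deficient mice. All 3 OGT-deficient samples were close to each other and below the lowest OGT-sufficient sample. The log2 fold change was -0.33 ± 0.11 (SE), with a 95% interval of -0.58 to -0.08, an unadjusted p of 0.0144 and an adjusted p of 0.565 in edgeR's quasi-likelihood test. It was lower at an unadjusted p under 0.05 in 11 of 15 alternatives, with log2 fold changes from -0.38 to -0.28. *Ppp3ca* was at 70.5, 73.8 and 70.8 CPM and at 70.7, 71.3 and 70.8 CPM, and its highest sample was 1.05 times its lowest, the smallest such ratio among the 44 members. The ratio of *Ppp3cb* to *Ppp3ca* counts, which needs no scaling between libraries, was 1.10, 0.975 and 1.11 in the OGT-sufficient mice and 0.858, 0.819 and 0.878 in the OGT-deficient mice. Its mean was 1.06 ± 0.0769 and 0.852 ± 0.0298 (SD, n = 3). The ratio was formed after the values of both genes were seen, so it is a description with no test.

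*Nfatc1*, the NFAT member with an inducible short form, was at 225, 234 and 210.3 CPM and at 207, 194 and 188 CPM. The groups did not overlap, but by a narrow margin, and the log2 fold change was -0.18 ± 0.11 (SE) with an adjusted p of 0.754 in edgeR's quasi-likelihood test. *Nfatc3*, the most abundant of the NFAT genes per length of transcript, was at 289.7, 314 and 293 CPM in the OGT-sufficient mice and at 341, 319 and 307 CPM in the OGT-deficient mice. Its groups overlapped and its log2 fold change was 0.11 ± 0.11 (SE). *Nfatc2* had a log2 fold change of -0.09. The 5 genes of this role had a median of -0.09, with 1 above 0 and 4 below.

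**Figure D3:**
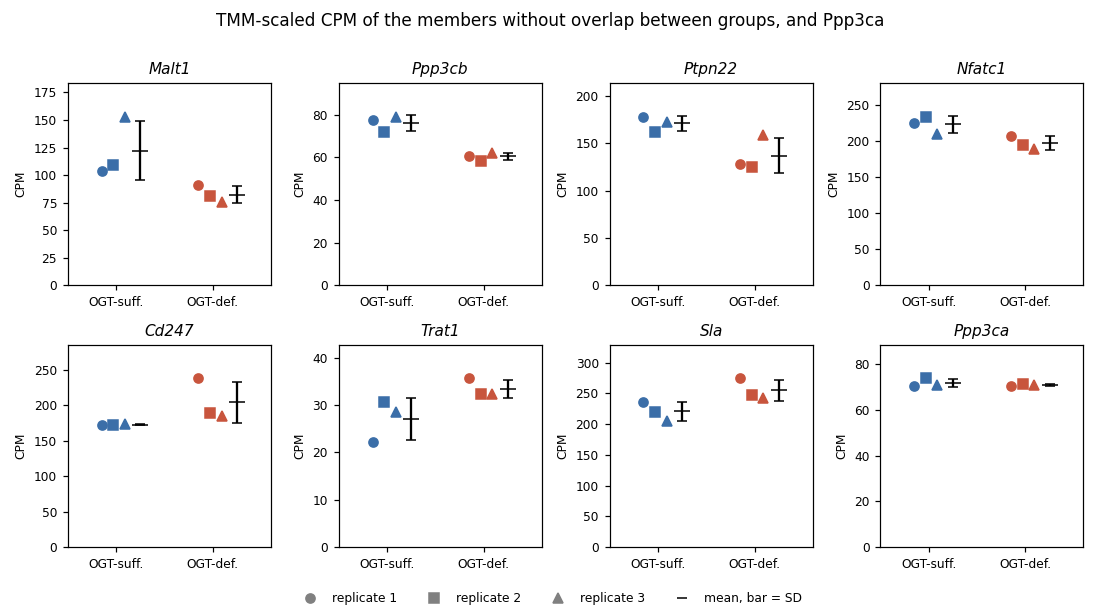
TMM-scaled CPM (y axis, from 0) in each mouse, by group on the x axis, of the 7 members whose groups did not overlap and of *Ppp3ca*, with a symbol for each replicate and a line and bar for the mean and SD. *Malt1*, *Ppp3cb*, *Ptpn22* and *Nfatc1* are lower in every OGT-deficient mouse, *Cd247*, *Trat1* and *Sla* higher, and the 6 *Ppp3ca* values lie between 70.5 and 73.8 CPM.

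In the group of phosphatases, CSK axis and inhibitory surface proteins, 2 genes were above 0 and 5 below, with a median of -0.05. *Ptpn22* encodes a phosphatase that acts with CSK to switch off LCK. It was at 178, 162 and 173 CPM in the OGT-sufficient mice and at 128, 125 and 158 CPM in the OGT-deficient mice. Every OGT-deficient sample was below every OGT-sufficient sample, with OGT-deficient replicate 3 nearly reaching them. The log2 fold change was -0.32 ± 0.13 (SE), with a 95% interval of -0.60 to -0.04, an unadjusted p of 0.0312 and an adjusted p of 0.668 in edgeR's quasi-likelihood test, and its unadjusted p was under 0.05 in 8 of 15 alternatives. *Ptprc* encodes CD45, which removes the inhibitory phosphate from LCK, and had more CPM than any other member in each of the 6 samples. It was at 1616, 1594 and 1844 CPM and at 1706, 1637 and 1532 CPM. The groups overlapped, and the log2 fold change was -0.05 ± 0.13 (SE), with a 95% interval of -0.34 to 0.23. *Cd5* and *Cd6*, inhibitory surface proteins of T cells, had log2 fold changes of 0.27 ± 0.14 and 0.27 ± 0.16 (SE), with adjusted p of 0.754 and 0.759 in the same test. As for the CD3 chains, OGT-deficient replicate 1 was their highest sample and OGT-sufficient replicate 3 their lowest. *Csk* was at -0.01, *Pag1*, which anchors CSK at the membrane, at -0.11 and *Ptpn6*, which encodes the phosphatase SHP-1, at -0.18 on the log2 fold change scale.

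Among the ubiquitin ligases, diacylglycerol kinases and other brakes, 4 genes were above 0 and 2 below, with a median of 0.08. *Sla*, which encodes SLAP, an adaptor that promotes degradation of TCR chains, was at 237, 219.8 and 205 CPM in the OGT-sufficient mice and at 274, 248 and 243 CPM in the OGT-deficient mice. All OGT-deficient samples were above all OGT-sufficient samples, and the log2 fold change was 0.21 ± 0.11 (SE) with an adjusted p of 0.754 in edgeR's quasi-likelihood test. *Dgka*, which converts diacylglycerol to phosphatidic acid, was at 437, 442 and 599 CPM and at 566, 489 and 473 CPM. Its highest sample was OGT-sufficient replicate 3, the groups overlapped, and the log2 fold change was 0.05 ± 0.15 (SE). *Cblb* and *Cbl*, ubiquitin ligases, had log2 fold changes of 0.10 and -0.01, *Ubash3a*, a suppressor of TCR signalling, 0.11, and *Dgkz*, the other diacylglycerol kinase among the members, -0.06.

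Per kilobase of transcript, the level over all 6 samples ranged from 6.49 CPM for *Trat1* to 401 CPM for *Cd3g*. After *Cd3g* came *Ptprc* at 323, *Cd3e* at 270 and *Cd4* at 210.3 CPM per kb, and the lowest after *Trat1* were *Sos1* at 8.93 and *Nck1* at 9.28 CPM per kb. The highest of each other role were *Lck* at 121, *Lat* at 105, *Rasgrp1* at 72, *Prkcq* at 88.8, *Nfatc3* at 50.4 and *Dgka* at 177 CPM per kb. Lengths are those of all annotated exons of a gene, so these levels do not allow for which isoform was made. Exons of *Cd3e*, *Lck*, *Lcp2*, *Themis*, *Sh2d1a*, *Plcg1*, *Nfatc3*, *Ptpn6*, *Dgka* and *Dgkz*, like those of *Cd247*, share bases with other annotated genes, so their counts are uncertain where reads could be split.

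The members were also described by whether they are largely limited to T cells, a split made with earlier results of these data known. Genes of a list can move together in a sample, so the counts and p-values of this split are descriptions only. For this description 18 members were taken as T-lineage-restricted, among them the receptor chains, *Lck*, *Zap70*, *Lat*, *Prkcq*, *Cd5* and *Cd6*, and 26 as shared with other blood or tissue cells, among them *Malt1*, *Ppp3cb*, *Ptpn22* and *Ptprc*. Of the T-lineage-restricted members 14 of 18 had a log2 fold change above 0, with a median of 0.14, against 7 of 26 shared members, with a median of -0.06, and 47.3% of all genes tested. OGT-deficient replicate 1 was the highest sample for 14 of the 18 T-lineage-restricted members, against 15.2% of all genes tested. OGT-sufficient replicate 3 was the highest sample for 13 of the 26 shared members, against 27.4% of all genes tested. The summed level of the T-lineage-restricted members was 3864, 3918 and 3544 CPM in the OGT-sufficient mice and 4751, 4193 and 3636 CPM in the OGT-deficient mice. The groups overlapped, since OGT-deficient replicate 3 was below OGT-sufficient replicates 1 and 2, and the exact permutation test gave a two-sided p of 0.3. The summed level of the shared members was 6117, 6255 and 6757 CPM and 6428, 6085 and 6052 CPM, with a p of 0.5 in the same exact test.

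Other lists also differed between these samples. The summed level of the Treg markers was 1558 CPM in OGT-sufficient replicate 3 and 2198 to 2519 CPM in the remaining samples. The summed level of the macrophage markers was 3954, 3514 and 1868 CPM in the OGT-sufficient mice and 1325, 4884 and 5764 CPM in the OGT-deficient mice. It was lowest in OGT-deficient replicate 1, where the T-lineage-restricted members were highest, and highest in OGT-deficient replicate 3, where only OGT-sufficient replicate 3 had a lower sum of the T-lineage-restricted members. OGT-sufficient replicate 3 had the second-lowest macrophage sum and the lowest sum of the T-lineage-restricted members, and OGT-deficient replicate 2 was second-highest in both. Of the macrophage markers, *Csf1r*, at 138 to 896 CPM, and *Vcam1*, at 441 to 2259 CPM, were far from 0 in all 6 samples. With the macrophage marker level as a covariate, an alternative chosen after seeing the data, the median log2 fold change of the T-lineage-restricted members was 0.17 and 14 of 18 were above 0. Without OGT-deficient replicate 1 the median was 0.07 with 13 of 18 above 0, and without OGT-deficient replicate 3 it was 0.24 with 15 of 18 above 0. Without both OGT-sufficient replicate 3 and OGT-deficient replicate 1 it was 0.03 with 13 of 18 above 0, and the shared members then had a median of -0.02 with 12 of 26 above 0. This pair was chosen after seeing the data and holds the highest and the lowest sum of the T-lineage-restricted members and the highest sum of the shared ones. The part of macrophages and other cell types in these values was not tested, and a covariate chosen after seeing the data cannot decide it.

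**Figure D4:**
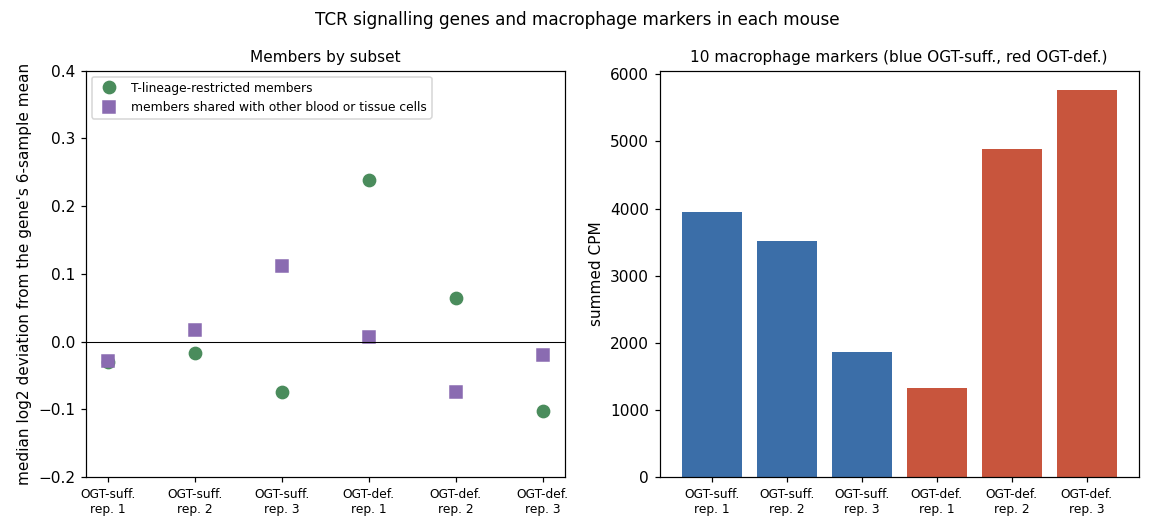
Left, for each mouse on the x axis, the median over genes of the log2 deviation from the gene's mean over 6 samples (y axis), for the 18 T-lineage-restricted members (circles) and the 26 shared members (squares). Right, the summed TMM-scaled CPM of the 10 macrophage markers in each mouse. The T-lineage-restricted members reach 0.24 in OGT-deficient replicate 1, and the shared members are highest, at 0.11, in OGT-sufficient replicate 3.

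A second list held 51 other genes of the pathway, of which 48 were in the table and 47 were tested, *Rnf128* being too low. None passed the FDR threshold. At an unadjusted p under 0.05 there were 3, all lower in OGT-deficient cells, where 7.1% of all genes tested were at that level. *Nedd4*, a ubiquitin ligase, was at 29.4, 24 and 53.4 CPM in the OGT-sufficient mice and at 22.2, 18 and 13.6 CPM in the OGT-deficient mice. The groups did not overlap, OGT-sufficient replicate 3 was far above the rest, and the log2 fold change was -0.99 ± 0.31 (SE) with an adjusted p of 0.551 in edgeR's quasi-likelihood test. Without OGT-sufficient replicate 3 the log2 fold change of *Nedd4* was -0.56. *Lax1*, an inhibitory adaptor, and *Itpr3*, a calcium channel of the endoplasmic reticulum, had log2 fold changes of -0.44 ± 0.19 (SE) each, with adjusted p of 0.685 and 0.686 in the same test. That of *Lax1* was -0.25 without OGT-deficient replicate 2, and that of *Itpr3* was -0.16 without OGT-sufficient replicate 3. Of the 47 genes 17 were above 0 and the median was -0.03.

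The third list held 12 transcripts known to be induced by TCR signals, and was drawn up with earlier results of these data known. Shares of this list set beside those of all genes tested are therefore descriptions only. Whether these transcripts follow TCR signals in these cells was not tested. None passed the FDR threshold in edgeR's quasi-likelihood test, but 8 of 12 had an unadjusted p under 0.05, where 7.1% of all genes tested did, and the same 8 had no overlap between the groups, where 13.2% of all genes tested had none. The count was 5 of 12 with DESeq2, against 2.55% of all genes, and 5 without OGT-sufficient replicate 1, against 7.37%. They went both ways. *Nr4a1*, *Nr4a3*, *Irf4*, *Myc* and *Dusp2* were higher in OGT-deficient cells, and *Egr1*, *Egr2* and *Egr3* were lower.

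*Irf4*, a transcription factor whose level follows the strength of the TCR signal, was at 96.5, 106 and 86.6 CPM in OGT-sufficient replicates 1, 2 and 3 and at 139.6, 131 and 163 CPM in OGT-deficient replicates 1, 2 and 3. All OGT-deficient samples were well above all OGT-sufficient samples, and the log2 fold change was 0.58 ± 0.13 (SE) with an adjusted p of 0.306 in edgeR's quasi-likelihood test. In 3 of 15 alternatives it passed the FDR threshold, with an adjusted p of 0.0971 with DESeq2, 0.0812 with edgeR's exact test and 0.0327 without the filter on low counts, and over the alternatives its adjusted p was between 0.0327 and 0.806. *Nr4a1*, which encodes the nuclear receptor NUR77, was at 103, 89.7 and 85.6 CPM and at 132, 127 and 121 CPM. The groups did not overlap, and the log2 fold change was 0.45 ± 0.12 (SE) with an adjusted p of 0.401 in the quasi-likelihood test of edgeR. *Nr4a3*, a relative of *Nr4a1*, had a log2 fold change of 0.28 ± 0.11 (SE), *Myc*, a driver of growth, 0.41 ± 0.13, and *Dusp2*, a phosphatase of MAP kinases, 0.45 ± 0.14.

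*Egr1*, an immediate early transcription factor induced through ERK, was at 104, 97 and 108 CPM in the OGT-sufficient mice and at 78.2, 67 and 81.8 CPM in the OGT-deficient mice. The groups did not overlap, and the log2 fold change was -0.45 ± 0.12 (SE) with an adjusted p of 0.44 in edgeR's quasi-likelihood test. *Egr2* and *Egr3*, its relatives with roles in T cell tolerance, had log2 fold changes of -0.43 ± 0.16 and -0.46 ± 0.15 (SE), with adjusted p of 0.592 and 0.565 in the same test. Of the other 4 transcripts, *Cd69*, an early activation antigen, had a log2 fold change of 0.29 ± 0.13 (SE) with overlapping groups, and *Nr4a2*, *Tnfrsf9* and *Nfkbid* had log2 fold changes of -0.16, 0.07 and -0.02. Many of these transcripts are also made by cells other than T cells, and whether other cells in the sort took part in their levels was not tested.

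**Figure D5:**
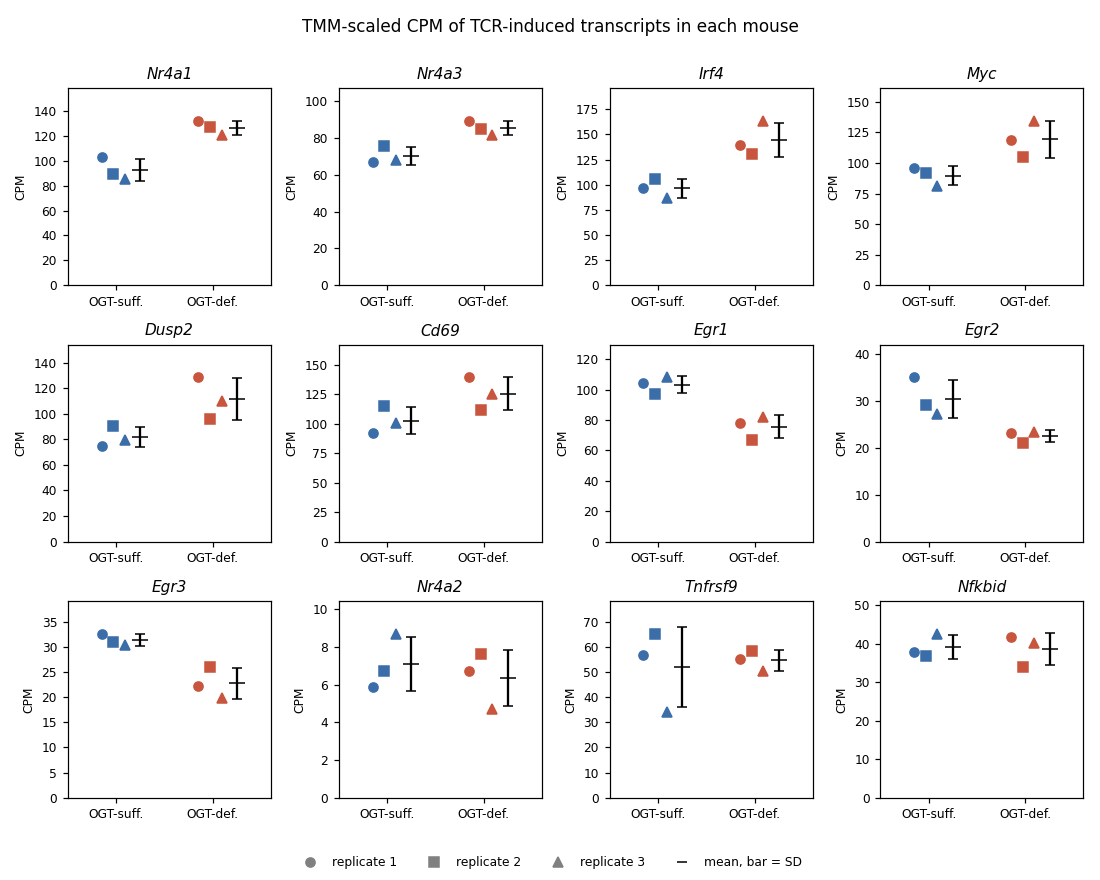
TMM-scaled CPM (y axis, from 0) of the 12 TCR-induced transcripts in each mouse, by group on the x axis, with a symbol for each replicate and a line and bar for the mean and SD. *Nr4a1*, *Nr4a3*, *Irf4*, *Myc* and *Dusp2* are higher and *Egr1*, *Egr2* and *Egr3* lower in every OGT-deficient mouse, and the groups of the other 4 overlap.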

How the data were processed

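RNA from YFP+ Treg cells of 3 OGT-sufficient and 3 OGT-deficient mice was sequenced as paired-end reads. The submitters' processing notes name Trimmomatic 0.33, FastQC, Bowtie2 2.2.4.0, featureCounts, edgeR and the build mm10, whereas the methods name Cuffquant for quantification. The authors deposited whole-number counts per gene symbol and sample, without normalization, beside the p-values and fold changes of their own comparison, which were not used here. Strand and the handling of shared reads are not given in the sources used here. Groups follow the genotypes that the labels give.

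The counts were scaled by TMM and tested with the quasi-likelihood method of edgeR 4.0.16 (R 4.3.3, limma 3.58.1). Genes passed edgeR's filter at 10 counts, no block was used, and p-values were adjusted by Benjamini-Hochberg over 10949 genes, with an FDR threshold of 0.1. Standard errors were derived from the F statistic. Overlap of genes and exon lengths come from GENCODE M21, which held 23375 of the 24420 symbols, and promoter windows from RefSeq. In simulated counts with 200 changed genes, among 10798 genes tested, 94.7% of 4-fold and 67.7% of 2-fold changes were recovered and 10.8% of calls were unchanged genes. Each gene was drawn on its own there, without shifts shared by many genes of a library, so recovery in the real counts may be lower. The scaled libraries held between 3712093 and 3952583 counts, and the intervals of the fold changes were drawn from the spread between samples. Replicates differed by more than sampling noise, with a chi-square of at least 3.31 per degree of freedom.

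The members and gene lists were chosen with earlier results of these data known. Values in each mouse are given for members without overlap or at an unadjusted p under 0.05, for the CD3 chains, *Cd247*, *Cd4*, *Lck*, *Zap70* and *Lat*, and for the member of each role with most CPM per kb. Other members get their fold changes, and some genes of the lists are not reported here. Of the other lists, members at an unadjusted p under 0.05 are named, and *Ppp3ca*, *Sh2d1a* and the other TCR-induced transcripts were added after their values were seen. Alternatives were DESeq2 1.42.0, the exact test of edgeR, size factors from DESeq2 in edgeR, no TMM (library size only), testing every gene with a count, requiring 10 counts in all samples, a replicate block, omission of 1 sample at a time, and, chosen after seeing the data, leaving out 2 samples together and the macrophage marker level as a covariate.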

Additional observations from a re-analysis of the deposited data

How the results depend on the processing

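No member passed the FDR threshold under any of the 15 alternatives, and 24 of the 44 kept the sign of their log2 fold change in all of them. The 3 members at an unadjusted p under 0.05 became 1 with DESeq2, 5 without the low-count filter and 5 with the replicate block. Of all genes tested, 2.55%, 6.13% and 6.2% were then at that level. The count was 5 without both OGT-sufficient replicate 3 and OGT-deficient replicate 1, against 8.95% of all genes tested. When 1 sample was left out it was between 1 (without OGT-deficient replicate 2) and 8 (without OGT-deficient replicate 3), against 4.13% and 6.64%. It was 6 without OGT-sufficient replicate 3, against 6.92%. The 7 members without overlap became 3 with library size only. The median log2 fold change of the 44 members became -0.0527 with library size only, 0.0379 without the filter, 0.0175 without the same 2 samples, and between -0.0129 and 0.0494 when 1 sample was left out.

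The 3 genes past the FDR threshold among all genes became 40 with DESeq2, 80 with the exact test, 131 without the filter, 31 with the macrophage marker level as a covariate, 80 without both samples, 0 with the replicate block and 0 to 9 when 1 sample was left out. The 777 genes at an unadjusted p under 0.05 became 502 with DESeq2, 1208 without the filter and 462 to 888 when 1 sample was left out. *Ogt* passed the threshold at a log2 fold change of -1.18 with DESeq2, -1.21 with the exact test, -1.15 with the covariate, -1.15 without the filter and -0.97 without both samples. *Irf4*, at 0.60, 0.58 and 0.63 with DESeq2, the exact test and no filter, was the 1 TCR-induced transcript to pass in each of them. The 8 TCR-induced transcripts at an unadjusted p under 0.05 became 5 with DESeq2 and 5 to 8 when 1 sample was left out. Of all genes tested, 2.55% and 4.13 to 7.9% were then at that level. The transcripts were not always the same. The 8 without OGT-sufficient replicate 2 included *Cd69* and lacked *Egr2*. *Nedd4* passed without the filter, at -0.93.

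The log2 fold change of *Cd4* turned to -0.039 without both samples, that of *Dgka* to -0.0118 with library size only and between -0.0335 and 0.223 when 1 sample was left out, and that of *Lat* to -0.0215 with library size only, -0.11 without both samples and between -0.11 and 0.166 when 1 was left out. *Lck* and *Ptprc* were between -0.212 and 0.11 and between -0.0869 and 0.0274 when 1 sample was left out. The cause of these changes was not tested. The correlation of deviations between same-numbered samples was -0.28, 0.0071 and -0.12, which gave no sign of pairing by replicate number. No member passed the FDR threshold with or without the replicate block, so the members cannot show what the block changes. Among all genes the block took the number past the threshold from 3 to 0. The adjusted p of *Ogt* went from 0.191 to 0.537 in edgeR's quasi-likelihood test. The precision that the depth and the spread between mice allow is given by the 95% intervals of the fold changes, which for 34 of the 44 members lay within a 1.5-fold change.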
